A study of Homo sapiens with 24 samples.

Results

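The 29 genes described here are p53 pathway genes, listed by symbol and found by that symbol in both deposited count tables, out of 58735 genes in the tables. They were followed in HEK293T cells, a human embryonic kidney line that carries the large T antigen of the virus SV40, through 6 groups of 4 messenger RNA libraries. The groups were MIR210HG-KO, MIR210-KO and unedited WT cells, each kept at 1% oxygen (hypoxia) or at 21% oxygen (normoxia) for 24 h. The gene MIR210 gives rise to the microRNA miR-210 and lies inside MIR210HG, whose product is a long RNA that is not translated. All groups shared the same high-glucose medium with 10% serum and the same TRIzol extraction and NEBNext library kit. Neither the clonality of the knockouts nor the origin of the 4 libraries of a group in separate cultures is stated in the labels. The p-values thus measure only the spread between these libraries, which may be technical. In bulk RNA, fewer cells that express a gene and less RNA per cell cannot be told apart.

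The protein p53 is a transcription factor that accumulates after DNA damage and other stresses and switches on genes of cell cycle arrest, DNA repair and cell death. MDM2, itself a p53 target, marks p53 for degradation and so closes a feedback loop, and MDM4 binds p53 and restrains it. In HEK293T cells large T antigen binds p53 and holds back its activity as a transcription factor. T antigen itself was not analysed here.

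Depth ran from 25556776 to 37858947 counts per library, and no libraries were duplicates of each other. MIR210HG had 0 counts in all 8 MIR210HG-KO libraries, 52 to 118 counts in normoxia MIR210-KO and 125 to 178 in normoxia WT, and 646 to 780 in hypoxia MIR210-KO against 646 to 765 in hypoxia WT. MIR210 itself also had 0 counts in all 8 MIR210HG-KO libraries, but in hypoxia it had 11, 6, 6 and 10 counts in MIR210-KO and 14, 8, 2 and 6 in WT, and in normoxia 1 and 3 counts over the 4 libraries of each. These few counts thus show no loss of MIR210 transcript in the libraries labelled MIR210-KO, what the edit removed is not stated in the labels, mature miR-210 was not analysed here, and MIR210-KO below means the libraries with that label. Hypoxia WT split into 2 pairs, library 1 with 3 and library 2 with 4, and hypoxia MIR210-KO 1 and normoxia MIR210HG-KO 3 stand apart from the rest of their groups. Values are given without a first set of 4 libraries, hypoxia WT 1 and 3 with those 2 single libraries, and without a second set, chosen after seeing the data, in which hypoxia WT 2 and 4 take the place of 1 and 3. Of 13 embryonic kidney epithelial markers, 10 or 11 averaged at least 1 CPM in each group, and their summed level ran from 413 to 539 CPM in the MIR210HG-KO libraries, 699 to 951 in MIR210-KO and 510 to 796 in WT, while KRT19 was at 0 in the hypoxia groups and PAX8 averaged at most 0.193 CPM in any group. Blood and endothelial markers summed to 3.05 to 6.69 CPM, and the T cell marker CD3E was at 0 in 4 of the 6 groups. Neuronal markers summed to 123 to 193 CPM in the MIR210HG-KO libraries, 503 to 685 in MIR210-KO and 291 to 653 in WT. In normoxia 5 of the 6 neuronal markers were lower in MIR210HG-KO than in WT and 5 of 6 higher in MIR210-KO, and of 11 tested kidney markers 7 were lower and 2 higher in MIR210HG-KO and 3 lower and 6 higher in MIR210-KO. Of all tested genes, 19.6% were lower and 15.6% higher in normoxia MIR210HG-KO, and 21.6% lower and 22.6% higher in normoxia MIR210-KO. The part of these markers in the differences between genotypes below was not tested.

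Of the 29 genes, 28 had enough counts to be tested. The exception was TNFRSF10A, a receptor for the death ligand TRAIL, with 2 counts in 1 hypoxia MIR210-KO library and 0 in the other 23 libraries. Levels between genes are compared in CPM, the count scaled to library size, per kilobase of gene length. On that scale CCNG1, which encodes cyclin G1, stood highest with a mean of 112 over the 24 libraries, followed by the pore-forming death protein gene BAX at 47.7 and TRIAP1, a mitochondrial lipid-transfer gene, at 40.6. The lowest tested genes were TIGAR at 0.806 and the stress cytokine gene GDF15 at 0.632. The largest spread between groups belonged to EDA2R, a receptor of the tumour necrosis factor family, whose group means ran from 1.18 in normoxia MIR210HG-KO to 16.5 in hypoxia MIR210-KO, a ratio of 14. The smallest ratios between the highest and lowest group means were 1.22 for PERP and 1.30 for CCNG1.

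**Figure D1:**
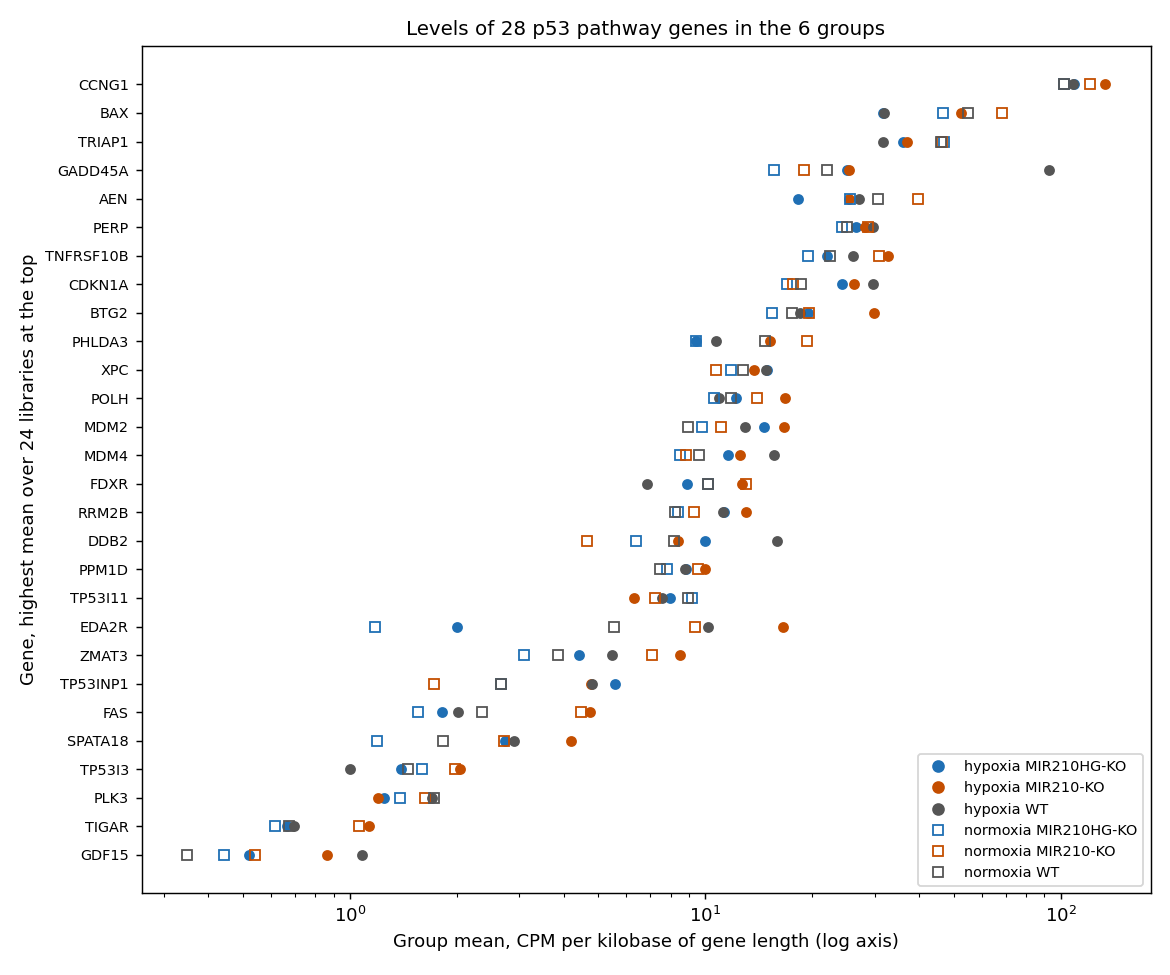
Group means of the 28 tested p53 pathway genes in CPM per kilobase of gene length, on a logarithmic axis, ordered by their mean over 24 libraries. Filled circles are hypoxia and open squares normoxia groups, each the mean of 4 libraries, and most genes keep their 6 means close together while EDA2R and GADD45A spread widely.

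In normoxia all the members called in MIR210HG-KO were lower than in WT, whereas most of those called in MIR210-KO were higher. In MIR210HG-KO 13 of 28 were lower and 0 higher than in WT (12 lower and 1 higher without the first set of 4 libraries, 11 and 1 without the second). With no filter on low counts 9 were lower and 0 higher, and leaving out 1 library at a time gave 10 to 12 lower. The background was 35.2% of all tested genes called, 19.6% lower and 15.6% higher. In MIR210-KO against WT 17 were higher and 5 lower (19 and 6 without either set), with 44.2% of all genes called, 22.6% higher and 21.6% lower. With each library's balance of long against short genes as a covariate, 14 were higher and 5 lower in MIR210-KO. The median log2 change of the 28 was -0.14 in MIR210HG-KO and 0.28 in MIR210-KO, where the medians of all genes were -0.01 and 0.01. Set directly against MIR210-KO, MIR210HG-KO had 17 members lower and 3 higher (18 and 4 without the first set, 18 and 3 without the second), with 49.2% of all genes called (25.8% lower and 23.4% higher) and a median of -0.30 against 0.00 for all genes. A gene is called here at an adjusted p under 0.05 in edgeR's quasi-likelihood test, adjusted over all 19952 genes tested, and n is 4 libraries per group throughout.

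In hypoxia MIR210-KO again had more members higher than lower, while MIR210HG-KO had calls in both directions. MIR210HG-KO had 11 members lower and 5 higher than WT (11 and 4 without the first set, 11 and 5 without the second), with 54.6% of all genes called, 30.2% lower and 24.4% higher, so that this count lies near the background. MIR210-KO had 17 higher and 6 lower than WT (17 and 8 without either set), with 55.9% called, 28.2% higher and 27.7% lower. MIR210HG-KO against MIR210-KO gave 18 lower and 3 higher (19 and 3 without either set), with 55.1% called, 29% lower and 26% higher, and a median of -0.37 against -0.01. The comparisons share their WT or MIR210-KO libraries, so their counts are not independent of each other.

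Well-counted genes are called more often, so the same shares were taken among the 10347 tested genes with a mean of at least 10 CPM, a limit chosen after seeing the data, which 24 members passed. In MIR210HG-KO against WT, 50% of these members were lower and 0 higher in normoxia, against 22% and 23.3% of all such genes, and 37.5% were lower and 16.7% higher in hypoxia, against 36.8% and 29.5%. The hypoxia share of lower members thus lay at the background. In MIR210-KO against WT, 62.5% of these members were higher and 20.8% lower at both oxygen levels, against 26.7% and 28.1% of all such genes in normoxia and 27.8% and 39.1% in hypoxia. In MIR210HG-KO against MIR210-KO, 66.7% were lower and 12.5% higher in normoxia, against 27.6% and 33.4%, and 62.5% were lower and 12.5% higher in hypoxia, against 28.9% and 36.9%.

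**Figure D2:**
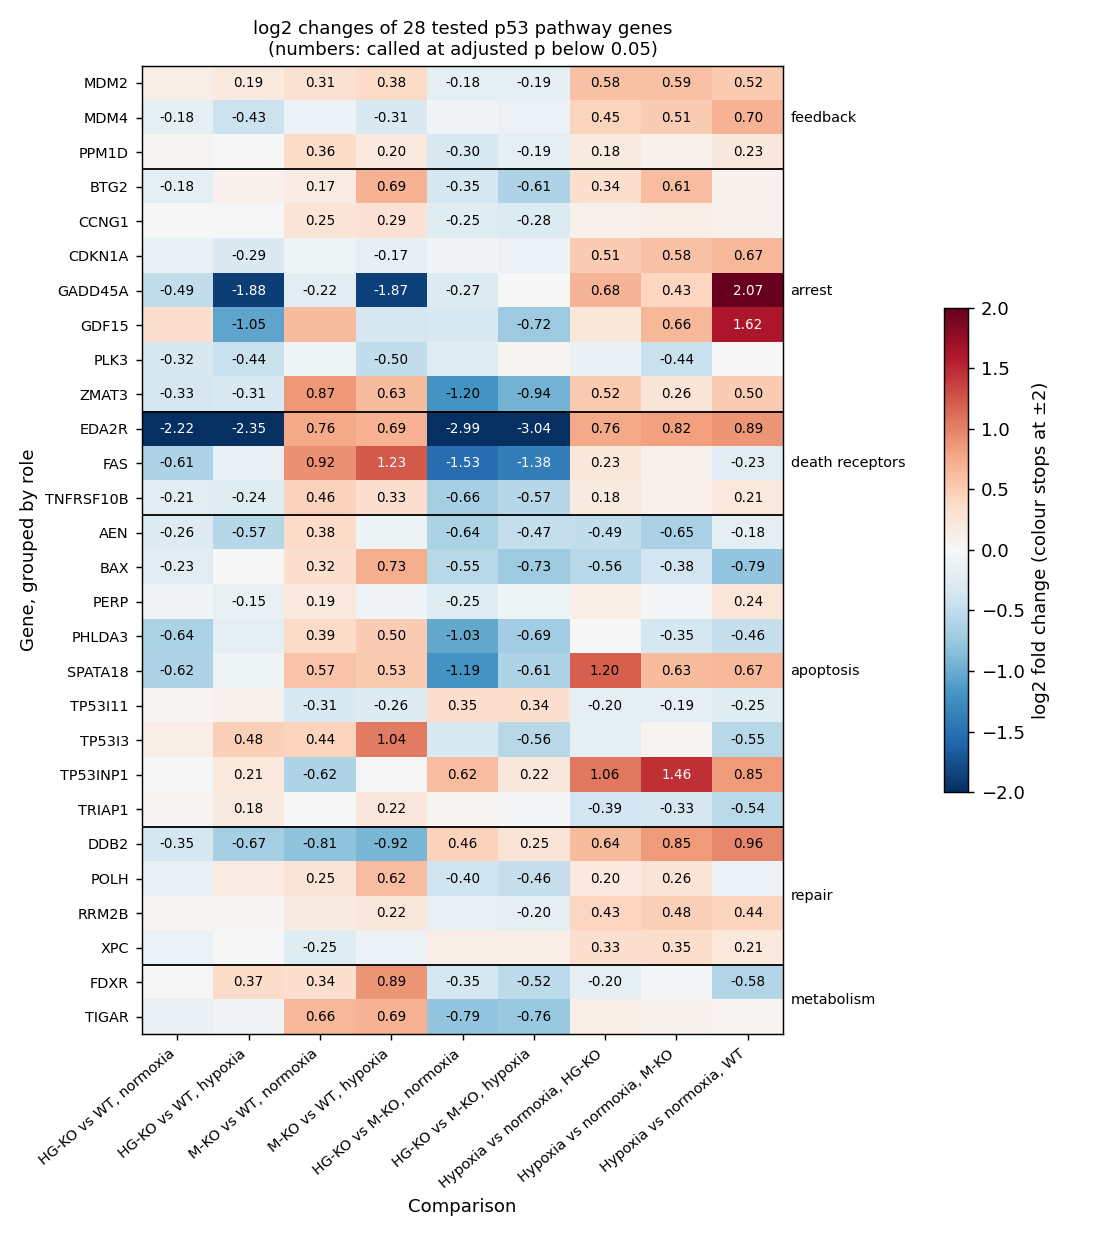
Log2 fold changes of the 28 tested p53 pathway genes (rows, grouped by role) in 9 comparisons (columns), where HG-KO is MIR210HG-KO and M-KO is MIR210-KO. Colour gives the change and stops at 2 in either direction, and numbers appear only where the gene was called: the MIR210-KO columns are mostly red, the HG-KO against M-KO columns mostly blue, and EDA2R is the darkest row.

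Lowered oxygen raised more members than it lowered in each genotype. Hypoxia against normoxia gave 16 higher and 5 lower in MIR210HG-KO (background 54.1% called, 25.7% higher and 28.3% lower), 14 higher and 6 lower in MIR210-KO (58.7%, with 29.3% higher and 29.5% lower), and 15 higher and 8 lower in WT (60.3%, with 29.6% higher and 30.7% lower). Without either set of 4 libraries, 18 were higher and 5 lower in MIR210HG-KO and 15 and 6 in MIR210-KO, and in WT 15 and 7 without the first set and 16 and 9 without the second. The member medians were 0.22, 0.20 and 0.21 on the log2 scale, and those of all genes 0.03, 0.04 and 0.00. Among genes of at least 10 CPM, 66.7% of the members were higher and 20.8% lower in MIR210HG-KO, against 25.7% and 45.6% of all such genes. In MIR210-KO 54.2% were higher and 20.8% lower, against 26.1% and 46.8%, and in WT 58.3% were higher and 29.2% lower, against 32.2% and 44%. Each oxygen level was deposited as its own table, so oxygen and table cannot be told apart.

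The response to oxygen differed by genotype for a minority of members. The interaction was called for 10 members between MIR210-KO and WT (7 higher, 3 lower, background 26.5%, with 12.5% higher and 14% lower), for 11 between MIR210HG-KO and WT (6 higher, 5 lower, background 22.5%, with 10.2% higher and 12.2% lower), and for 2 between the knockouts (1 higher, 1 lower, background 3.54%, with 2.03% higher and 1.51% lower). At 10 CPM or more, the shares were 37.5% of members against 38.1% of all genes, 41.7% against 33.6%, and 8.33% against 5.22%, so the number of interactions is not a result about these genes. These counts were 13, 12 and 8 without the first set of 4 libraries and 11, 15 and 6 without the second.

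The promoters of the members were searched for the consensus p53 half-site, a 10-letter motif that reads as itself on the opposite strand, so that both strands are covered by 1 search. The windows run from 250 bases before to 50 bases after each start in RefSeq (GRCh38.p14), and 23 members had at least 1 window, 35 in all. A half-site lay in the windows of AEN, DDB2, FAS and FDXR, which is 17.4% of the 23, against 8.06% of 27305 genes searched alike. Per window this was 11.4% of 35 against 6.63% of 35116. DDB2 alone had a pair of half-sites at most 13 bases apart, a pattern found in 0.0366% of all genes. The matches are shown because they are the p53-type letters nearest to these starts, with the half-site in capitals and 10 bases on each side, and a match is not evidence of binding.
AEN chr15:88621296-88621325, plus strand: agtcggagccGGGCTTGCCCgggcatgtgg
FAS chr10:88991299-88991328, plus strand: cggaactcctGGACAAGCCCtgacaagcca
FDXR chr17:74872986-74873015, minus strand: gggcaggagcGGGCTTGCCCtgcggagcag
The half-sites begin at 34, 122 and 11 bases before the RefSeq start of their window in AEN, FAS and FDXR. The other windows of FAS, FDXR and DDB2 held no half-site. The FAS window with the match lies inside the gene as deposited, which begins at 88990582. For DDB2 the whole window is given, with both half-sites in capitals. The first begins at base 6 and the second at base 17, counting the start as base 1.
DDB2 chr11:47214724-47215023, plus strand: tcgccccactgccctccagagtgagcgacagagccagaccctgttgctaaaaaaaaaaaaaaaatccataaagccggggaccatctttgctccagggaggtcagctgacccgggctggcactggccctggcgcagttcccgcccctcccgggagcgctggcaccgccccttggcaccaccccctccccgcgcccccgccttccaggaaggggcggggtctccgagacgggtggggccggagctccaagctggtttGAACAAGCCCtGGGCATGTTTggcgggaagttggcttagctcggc
The 4 genes with a half-site did not share a direction: in normoxia MIR210-KO against WT, AEN, FAS and FDXR were called higher and DDB2 lower. Windows without a match, such as those of CDKN1A, MDM2 and EDA2R, lack these letters within 300 bases only.

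Among the feedback genes, MDM2, the ubiquitin ligase of p53, had 121, 127, 139 and 135 CPM in normoxia MIR210HG-KO, 151, 141, 149 and 151 CPM in normoxia MIR210-KO, and 117, 120, 120 and 118 CPM in normoxia WT. All MIR210-KO libraries lay above all WT libraries. The log2 change in MIR210-KO was 0.31 ± 0.0659 (SE) with an adjusted p of 0.000218 by edgeR's quasi-likelihood test, and 0.38 ± 0.0649 in hypoxia (adjusted p = 9.95e-06). With each library's balance of long against short genes as a covariate, the normoxia call for MDM2 was lost (0.14, adjusted p = 0.24). That balance did not overlap between normoxia MIR210-KO and normoxia WT, so covariate and genotype cannot be told fully apart there. In MIR210HG-KO MDM2 was not called in normoxia (0.13, adjusted p = 0.129), and its hypoxia call (0.19 ± 0.0649, adjusted p = 0.0159) was lost at 0.14 without hypoxia WT 1, at 0.15 without hypoxia WT 3 and at 0.04 without the first set of 4 libraries, and was 0.33 without the second set.

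Hypoxia raised MDM2 in all 3 genotypes. It had 205, 188, 201 and 184 CPM in hypoxia MIR210HG-KO, 209, 235, 218 and 225 CPM in hypoxia MIR210-KO, and 155, 201, 152 and 176 CPM in hypoxia WT, each group above its own normoxia libraries without overlap. The log2 changes were 0.58, 0.59 and 0.52, and no interaction was called. The WT values fall by the pairs of that group, with 1 and 3 at 155 and 152 CPM and 2 and 4 at 201 and 176 CPM. MDM4 also rose with hypoxia, by 0.45 in MIR210HG-KO, 0.51 in MIR210-KO and 0.70 in WT, and under hypoxia MIR210HG-KO had less of it than WT (-0.43 ± 0.0616, adjusted p = 5.38e-07) as did MIR210-KO (-0.31 ± 0.0615, adjusted p = 6.01e-05). PPM1D, a phosphatase that turns off p53 signalling, was higher than WT in MIR210-KO by 0.36 ± 0.0524 in normoxia and 0.20 ± 0.051 in hypoxia, and was not called in MIR210HG-KO against WT.

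Against WT, the arrest and growth genes were called in both directions in MIR210-KO and only lower in MIR210HG-KO. In normoxia 0 of 7 were higher and 4 lower in MIR210HG-KO than in WT, and 3 were higher and 1 lower in MIR210-KO. The background in MIR210HG-KO was 35.2% of all tested genes called, 15.6% higher and 19.6% lower. In MIR210-KO it was 44.2%, 22.6% higher and 21.6% lower. Of the 4 lower calls in MIR210HG-KO, that of PLK3 (-0.32) was lost under 11 of 18 alternatives and that of BTG2 (-0.18) under 3. In hypoxia 0 were higher and 5 lower in MIR210HG-KO (background 24.4% and 30.2%), and 3 higher and 3 lower in MIR210-KO (28.2% and 27.7%). CDKN1A, which encodes the cell cycle inhibitor p21, had 55.9, 50.9, 46.8 and 54.1 CPM in normoxia MIR210HG-KO, 51.7, 53.3, 57.0 and 52.8 CPM in MIR210-KO and 59.8, 57.0, 55.1 and 55.4 CPM in WT. The groups overlap, and the changes against WT, -0.13 ± 0.0625 in MIR210HG-KO (adjusted p = 0.107) and -0.08 ± 0.0625 in MIR210-KO (adjusted p = 0.3), were not called. The gene thus did not pass the test in either normoxia comparison with WT.

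In hypoxia CDKN1A had 68.0, 80.6, 75.4 and 72.6 CPM in MIR210HG-KO, 85.1, 72.5, 82.2 and 81.4 CPM in MIR210-KO and 90.9, 91.3, 93.7 and 85.9 CPM in WT. Every hypoxia library lay above every normoxia library. The rise with hypoxia was 0.51 ± 0.0619 in MIR210HG-KO, 0.58 ± 0.0617 in MIR210-KO and 0.67 ± 0.0613 in WT, with no interaction called. In hypoxia the gene was lower in MIR210HG-KO than in WT by edgeR's test (-0.29 ± 0.0604, adjusted p = 0.000162). The smaller difference in MIR210-KO (-0.17 ± 0.0603, adjusted p = 0.016) was lost without hypoxia MIR210-KO 2, at -0.13 with an adjusted p of 0.0913, under upper quartile factors (-0.11) and with no filter on low counts (-0.15), and was -0.26 without the second set of 4 libraries.

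ZMAT3, an RNA-binding splicing regulator, was the arrest gene with the largest log2 difference between the knockouts at both oxygen levels. In normoxia it had 27.8, 29.7, 33.0 and 28.4 CPM in MIR210HG-KO, 69.7, 68.3, 66.4 and 68.5 CPM in MIR210-KO and 34.8, 38.2, 37.0 and 39.0 CPM in WT. In hypoxia it had 40.6, 44.7, 46.3 and 38.7 CPM in MIR210HG-KO, 76.1, 84.2, 84.8 and 81.8 CPM in MIR210-KO, and 44.7, 66.7, 45.8 and 53.9 CPM in WT. MIR210-KO lay above the other groups at both oxygen levels without overlap, whereas hypoxia MIR210HG-KO and hypoxia WT overlapped. The log2 change against WT was 0.87 ± 0.0864 in normoxia MIR210-KO (adjusted p = 5.34e-10) and -0.33 ± 0.089 in normoxia MIR210HG-KO (adjusted p = 0.00436). Between the knockouts it was -1.2 ± 0.0878 in normoxia and -0.94 ± 0.0846 in hypoxia.

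GADD45A, a stress sensor of the growth arrest and DNA damage family, had its highest values in hypoxia WT. It had 46.6, 56.9, 54.9 and 49.8 CPM in hypoxia MIR210HG-KO, 56.1, 49.9, 50.7 and 53.1 CPM in hypoxia MIR210-KO, and 211, 161, 220 and 177 CPM in hypoxia WT. In normoxia the values were 34.6, 31.6, 33.6 and 29.7 CPM in MIR210HG-KO, 36.6, 37.5, 43.1 and 38.8 CPM in MIR210-KO, and 47.4, 48.0, 42.7 and 44.2 CPM in WT. Hypoxia WT stood far above the other 5 groups. Hypoxia raised GADD45A 4.21-fold in WT (2.07 ± 0.0819, adjusted p = 1.17e-19), 1.34-fold in MIR210-KO and 1.61-fold in MIR210HG-KO. The interactions, -1.39 ± 0.115 for MIR210HG-KO (adjusted p = 2.4e-10) and -1.65 ± 0.115 for MIR210-KO (adjusted p = 3.08e-12), were both called. In hypoxia the gene was 3.69-fold lower in MIR210HG-KO and 3.66-fold lower in MIR210-KO than in WT. Normoxia MIR210HG-KO libraries also had less of it than WT (-0.49 ± 0.0838, adjusted p = 1.91e-05), and its call in MIR210-KO (-0.22, adjusted p = 0.0283) was lost, at -0.19 to -0.23, without any 1 of normoxia MIR210-KO 1, 2 and 4 or normoxia WT 1, 2 and 4, and the value turned to 0.04 (adjusted p = 0.789) with the length balance covariate.

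GADD45A is also known as a target of ATF4, the transcription factor of the integrated stress response. The 17 listed genes of that response summed to 2270 to 2490 CPM in hypoxia MIR210HG-KO libraries, 2100 to 2430 in hypoxia MIR210-KO and 4550 to 5530 in hypoxia WT. In hypoxia 16 of the 17 were lower and 1 higher than WT in each knockout. Of all tested genes, 30.2% were lower there in MIR210HG-KO and 27.7% in MIR210-KO. In normoxia 15 of the 17 were lower and 1 higher in MIR210HG-KO, and 16 lower and 0 higher in MIR210-KO, with medians of -1.12 and -0.66. The normoxia shares of all genes called lower were 19.6% and 21.6%. The part of these 17 genes in the GADD45A difference was not tested.

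GDF15 rests on few counts, from 78 over the 4 normoxia WT libraries to 330 over the 4 hypoxia WT libraries. It had 0.912, 0.874, 1.10 and 1.46 CPM in hypoxia MIR210HG-KO, 1.62, 1.19, 2.23 and 2.17 CPM in hypoxia MIR210-KO, and 2.28, 2.20, 2.44 and 2.07 CPM in hypoxia WT. Normoxia values were 1.5, 1.15, 0.336 and 0.696 CPM in MIR210HG-KO, 1.34, 0.969, 1.09 and 1.12 CPM in MIR210-KO, and 0.742, 0.843, 0.774 and 0.556 CPM in WT. The clearest differences involve hypoxia WT, whose libraries do not overlap those of hypoxia MIR210HG-KO or normoxia WT. The rise with hypoxia was 1.62 ± 0.274 in WT (adjusted p = 5.72e-06), and hypoxia MIR210HG-KO was lower than WT by edgeR's test (-1.05 ± 0.253, adjusted p = 0.000707). The interaction for MIR210HG-KO was -1.39 ± 0.401 (adjusted p = 0.0111) and was lost without normoxia MIR210HG-KO 1, at -1.06 with an adjusted p of 0.0584.

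The remaining arrest genes BTG2, CCNG1 and PLK3 changed by at most 0.69 on the log2 scale. BTG2, an antiproliferative gene, was higher than WT in hypoxia MIR210-KO (0.69 ± 0.05, adjusted p = 2.35e-13), with 82.2 ± 1.69 against 51.0 ± 1.38 CPM (SD, n = 4 each), and rose with hypoxia by 0.61 in MIR210-KO and 0.34 in MIR210HG-KO but was not called in WT (0.08). Its interaction between MIR210-KO and WT was 0.52 ± 0.0715 (adjusted p = 1.47e-06). CCNG1 was higher in MIR210-KO by 0.25 ± 0.0611 in normoxia and 0.29 ± 0.0609 in hypoxia (0.19 without the second set of 4 libraries), and was not called in MIR210HG-KO against WT or with oxygen. PLK3, a stress-activated kinase, was lower than WT in both knockouts in hypoxia, at -0.44 ± 0.121 in MIR210HG-KO and -0.50 ± 0.12 in MIR210-KO.

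All 3 death receptors that could be tested were lower in normoxia MIR210HG-KO and higher in normoxia MIR210-KO than in WT. Of all tested genes, 19.6% were lower in that MIR210HG-KO comparison and 22.6% higher in that MIR210-KO comparison. EDA2R gave the largest change of any member. Hypoxia did not move the 3 receptors alike. In WT EDA2R (0.89) and TNFRSF10B (0.21) rose while FAS was at -0.23, a call that 9 of its alternatives lost. EDA2R lies on the minus strand of chromosome X at 66595637 to 66639298 (GRCh38) and overlaps no other annotated gene. It had 4.55, 4.49, 4.36 and 3.48 CPM in normoxia MIR210HG-KO, 34.3, 36.3, 33.7 and 29.8 CPM in normoxia MIR210-KO, and 21.1, 17.5, 19.9 and 20.6 CPM in normoxia WT. In hypoxia the values were 7.68, 7.76, 6.77 and 6.40 CPM in MIR210HG-KO, 55.5, 63.8, 62.1 and 55.0 CPM in MIR210-KO, and 31.9, 42.8, 33.6 and 38.0 CPM in WT. No 2 genotypes overlapped at either oxygen level.

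Against WT, EDA2R was 4.68-fold lower in normoxia MIR210HG-KO (-2.22 ± 0.108, adjusted p = 5.22e-17) and 5.11-fold lower in hypoxia (-2.35 ± 0.0948, adjusted p = 2.26e-19). It was 1.69-fold higher in normoxia MIR210-KO (0.76 ± 0.0884, adjusted p = 1.48e-08) and 1.61-fold higher in hypoxia (0.69 ± 0.0825, adjusted p = 1.49e-08). The knockouts therefore differed 7.92-fold in normoxia and 8.25-fold in hypoxia. Hypoxia raised the gene in every genotype, by 0.76 ± 0.116 in MIR210HG-KO, 0.82 ± 0.084 in MIR210-KO and 0.89 ± 0.0871 in WT, and no interaction was called. All 9 of these calls held under each alternative run.

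FAS, the receptor of the Fas death ligand, lies on the plus strand of chromosome 10 at 88990582 to 89015785 and overlaps ACTA2 on the opposite strand. The genes that overlap it had 61.7% as many counts as FAS itself, and since the strand setting of the counting is not stated, its reads cannot be told fully apart from theirs. It had 6.40, 6.87, 7.08 and 5.94 CPM in normoxia MIR210HG-KO, 19.5, 18.9, 19.4 and 17.9 CPM in normoxia MIR210-KO, and 9.34, 9.67, 11.2 and 9.90 CPM in normoxia WT. In hypoxia these were 7.49, 7.94, 8.19 and 7.33 CPM in MIR210HG-KO, 20.9, 20.4, 19.9 and 19.5 CPM in MIR210-KO, and 9.48, 9.41, 7.46 and 7.92 CPM in WT. MIR210-KO was the highest group at both oxygen levels without overlap.

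The log2 change of FAS against WT was 0.92 ± 0.0825 in normoxia MIR210-KO (adjusted p = 6.23e-11) and 1.23 ± 0.0804 in hypoxia (adjusted p = 1.86e-14). In MIR210HG-KO it was -0.61 ± 0.0897 in normoxia (adjusted p = 2.17e-06) and was not called in hypoxia (-0.15, adjusted p = 0.149). The difference between its 2 oxygen levels, the interaction for MIR210HG-KO, was 0.46 ± 0.124 (adjusted p = 0.00686). TNFRSF10B, the TRAIL receptor DR5, was called in the same direction as EDA2R in these comparisons, at smaller size. It was -0.21 ± 0.0514 in normoxia MIR210HG-KO (adjusted p = 0.00198, lost at -0.17 with no filter on low counts), -0.24 ± 0.0508 in hypoxia MIR210HG-KO, 0.46 ± 0.0511 in normoxia MIR210-KO (adjusted p = 5.91e-09) and 0.33 ± 0.0505 in hypoxia MIR210-KO, all against WT.

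**Figure D3:**
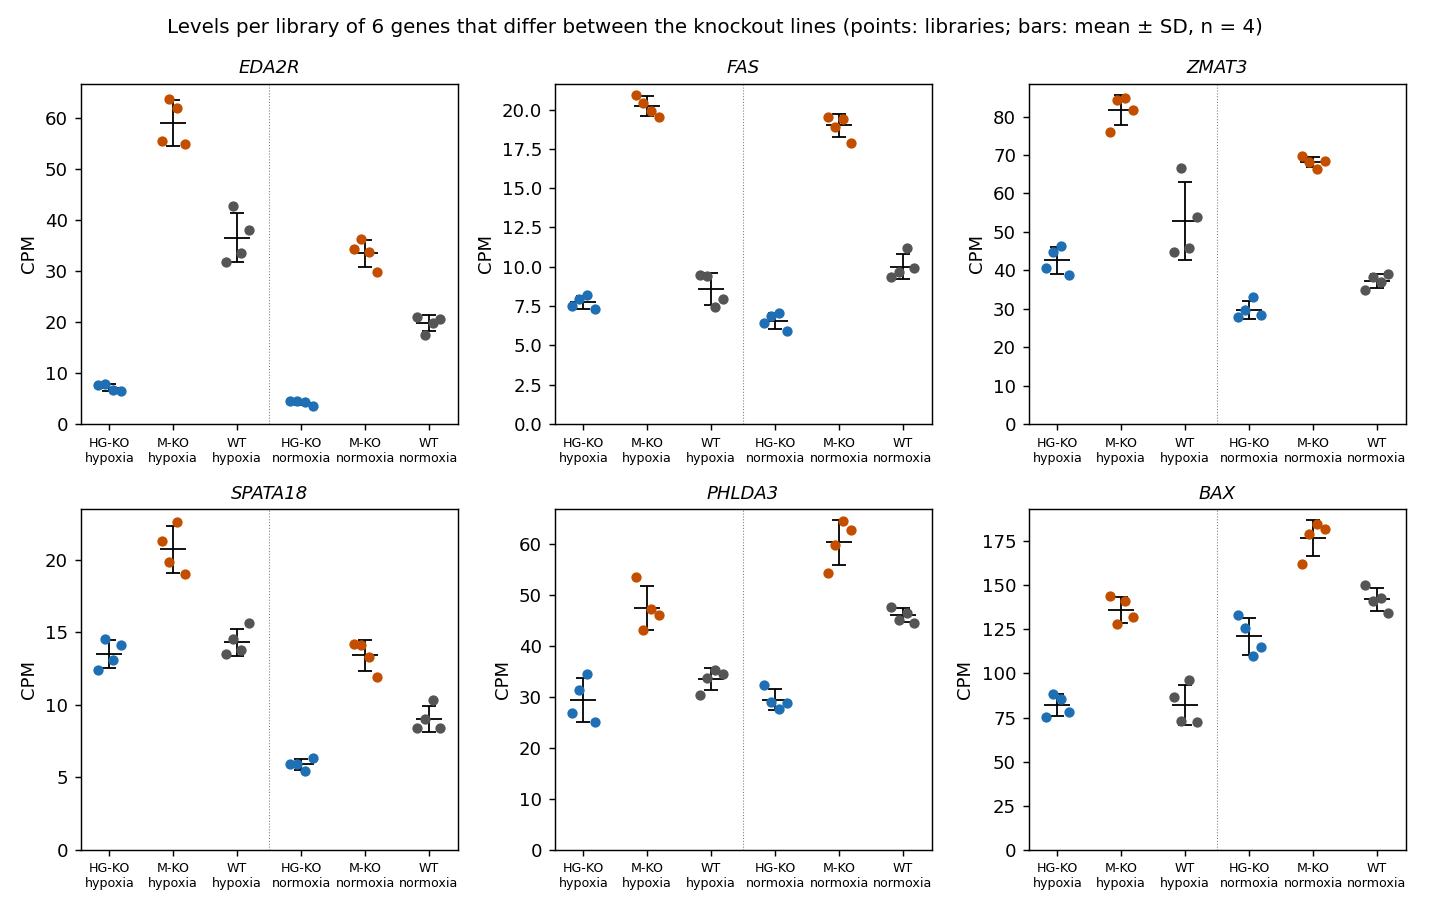
CPM per library of EDA2R, FAS, ZMAT3, SPATA18, PHLDA3 and BAX in the 6 groups, where HG-KO is MIR210HG-KO and M-KO is MIR210-KO, with bars for the mean and SD of 4 libraries. In each panel the M-KO points lie above the WT points of the same oxygen level, and the HG-KO points of EDA2R lie far below them.

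Of the 9 genes of apoptosis and mitochondria, 0 were higher and 4 lower in normoxia MIR210HG-KO, and 6 were higher and 2 lower in normoxia MIR210-KO. The background was again 35.2% and 44.2% of all genes called. As calls in either direction, the first count (44.4%) thus lies near the background. By direction the background was 15.6% higher and 19.6% lower in MIR210HG-KO, and 22.6% and 21.6% in MIR210-KO. BAX had 133, 126, 110 and 115 CPM in normoxia MIR210HG-KO, 162, 179, 185 and 182 CPM in MIR210-KO, and 150, 141, 143 and 134 CPM in WT. In hypoxia the values were 75.1, 88.6, 85.6 and 78.2 CPM in MIR210HG-KO, 144, 128, 141 and 132 CPM in MIR210-KO, and 86.7, 73.3, 96.5 and 72.5 CPM in WT. MIR210-KO was highest at both oxygen levels, and hypoxia MIR210HG-KO overlapped hypoxia WT.

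Against WT, BAX was higher in MIR210-KO by 0.32 ± 0.0752 in normoxia (adjusted p = 0.000786, and 0.58 with the length balance covariate) and 0.73 ± 0.0758 in hypoxia (adjusted p = 9.13e-10). The call in normoxia MIR210HG-KO (-0.23 ± 0.0756, adjusted p = 0.0156) was lost without normoxia MIR210HG-KO 3 (-0.19) or 4 (-0.21) and without normoxia WT 1 (-0.20) or 3 (-0.22). In contrast to MDM2 and CDKN1A, BAX fell with hypoxia, by 0.56 on the log2 scale in MIR210HG-KO, 0.38 in MIR210-KO (0.24 under upper quartile factors) and 0.79 in WT.

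SPATA18, which encodes the mitochondrial quality control protein Mieap, had 5.90, 5.91, 5.41 and 6.31 CPM in normoxia MIR210HG-KO, 14.2, 14.1, 13.3 and 11.9 CPM in MIR210-KO and 8.39, 8.99, 10.3 and 8.41 CPM in WT. In hypoxia it had 12.4, 14.5, 13.1 and 14.1 CPM in MIR210HG-KO, 21.3, 19.8, 22.6 and 19 CPM in MIR210-KO and 13.5, 14.5, 13.8 and 15.6 CPM in WT. The 3 genotypes were separate in normoxia, while in hypoxia MIR210HG-KO and WT overlapped. Against WT it was lower in normoxia MIR210HG-KO (-0.62 ± 0.0947, adjusted p = 3.77e-06), not called there in hypoxia (-0.09, adjusted p = 0.383), and higher in MIR210-KO in normoxia (0.57 ± 0.0876) and hypoxia (0.53 ± 0.0796). Its rise with hypoxia was 1.2 ± 0.0908 in MIR210HG-KO, 0.63 ± 0.0818 in MIR210-KO and 0.67 ± 0.0854 in WT, and the rise in MIR210HG-KO was larger than in WT (interaction 0.53 ± 0.125, adjusted p = 0.00218) and than in MIR210-KO (0.57 ± 0.122, adjusted p = 0.00572).

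PHLDA3, an inhibitor of the survival kinase Akt, had 32.4, 29, 27.7 and 28.9 CPM in normoxia MIR210HG-KO, 54.3, 59.9, 64.6 and 62.9 CPM in MIR210-KO and 47.8, 45.2, 46.6 and 44.6 CPM in WT. Hypoxia values were 26.9, 31.5, 34.6 and 25.1 CPM in MIR210HG-KO, 53.6, 43.1, 47.3 and 46.2 CPM in MIR210-KO and 30.5, 33.7, 35.4 and 34.6 CPM in WT. The knockouts lay on opposite sides of WT in normoxia without overlap. The changes there were -0.64 ± 0.0821 in MIR210HG-KO (adjusted p = 1.64e-07) and 0.39 ± 0.0796 in MIR210-KO (adjusted p = 0.000138). Between the knockouts the change was -1.03 ± 0.0818 in normoxia and -0.69 ± 0.0805 in hypoxia.

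TP53INP1, a gene of stress-induced autophagy and cell death, was lowest in MIR210-KO in normoxia. It had 14, 14.3, 16 and 16.1 CPM in normoxia MIR210HG-KO, 9.5, 9.65, 10.9 and 9.27 CPM in MIR210-KO and 16.1, 13.1, 16.1 and 15.0 CPM in WT, so that MIR210-KO was lowest without overlap (-0.62 ± 0.0999 against WT, adjusted p = 4.9e-06). In hypoxia it had 31.2, 34.3, 29.5 and 31.3 CPM in MIR210HG-KO, 26.0, 28.2, 27.8 and 26.2 CPM in MIR210-KO and 22.7, 33.1, 24.3 and 28.9 CPM in WT. All hypoxia libraries lay above all normoxia libraries. The rise was 1.06 ± 0.0918 in MIR210HG-KO, 1.46 ± 0.0961 in MIR210-KO and 0.85 ± 0.0914 in WT, and that of MIR210-KO exceeded that of WT (interaction 0.61 ± 0.133, adjusted p = 0.000782). The gene overlaps NDUFAF6 on the opposite strand, which had 110% as many counts. Its small hypoxia difference between MIR210HG-KO and WT (0.21, adjusted p = 0.0416) was lost, at 0.13 to 0.22, without any 1 of hypoxia MIR210HG-KO 2 and 4 or hypoxia WT 1 and 3, and came to 0.02 without the first set of 4 libraries, 0.41 without the second and 0.32 without hypoxia WT 2 alone.

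TP53I3, a quinone oxidoreductase gene, had 2.71, 3.15, 3.71 and 3.31 CPM in hypoxia MIR210HG-KO, 4.61, 5.13, 3.99 and 5.16 CPM in hypoxia MIR210-KO and 2.28, 1.90, 2.36 and 2.69 CPM in hypoxia WT. Normoxia values were 3.74, 3.23, 3.80 and 4.01 CPM in MIR210HG-KO, 4.77, 4.16, 4.97 and 4.35 CPM in MIR210-KO and 3.40, 2.61, 3.87 and 3.60 CPM in WT. In hypoxia the 3 genotypes did not overlap. Both knockouts were higher than WT there, by 0.48 ± 0.141 in MIR210HG-KO (adjusted p = 0.00471) and 1.04 ± 0.137 in MIR210-KO (adjusted p = 1.02e-07). In normoxia the MIR210-KO call (0.44, adjusted p = 0.0108) was lost without normoxia WT 2 (0.34) and with the length balance covariate (0.36). TP53I3 overlaps FAM228B on the opposite strand, which had 107% as many counts, so its values are uncertain.

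The other members of this role include AEN, an apoptosis-enhancing nuclease, which was lower in MIR210HG-KO than in WT (-0.26 ± 0.0525 in normoxia, -0.57 ± 0.0526 in hypoxia), was higher in normoxia MIR210-KO (0.38 ± 0.0523) and not called in hypoxia MIR210-KO (-0.10). AEN fell with hypoxia by 0.49 in MIR210HG-KO, 0.65 in MIR210-KO and 0.18 in WT, where the call was lost under upper quartile factors (-0.08, adjusted p = 0.171). TRIAP1 likewise fell with hypoxia, by 0.39 in MIR210HG-KO, 0.33 in MIR210-KO and 0.54 in WT (0.25, 0.19 and 0.45 under upper quartile factors), and was not called between genotypes in normoxia. PERP, a desmosome gene and apoptosis effector, differed by at most 0.25 on the log2 scale in any of the 9 comparisons. TP53I11, of less known function, was lower in MIR210-KO (-0.31 ± 0.0698 in normoxia, -0.26 ± 0.0692 in hypoxia) and not called in MIR210HG-KO, each against WT.

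Among the 4 repair genes DDB2, the small subunit of the UV damage sensor, was lower than WT in both knockouts. It had 31.1, 34.2, 28.8 and 31.1 CPM in normoxia MIR210HG-KO, 20.2, 23.4, 23.6 and 23.7 CPM in MIR210-KO and 41.1, 39.3, 39.7 and 39.3 CPM in WT. In hypoxia it had 47.3, 50.1, 51.4 and 46.8 CPM in MIR210HG-KO, 40, 43.1, 42.2 and 38.8 CPM in MIR210-KO and 76.0, 84.8, 74.7 and 75.7 CPM in WT. No genotypes overlapped at either oxygen level. The changes in normoxia were -0.35 ± 0.0629 in MIR210HG-KO (adjusted p = 4.33e-05) and -0.81 ± 0.0644 in MIR210-KO (adjusted p = 3.79e-12), and in hypoxia -0.67 ± 0.0598 in MIR210HG-KO and -0.92 ± 0.0602 in MIR210-KO. Hypoxia raised it by 0.64, 0.85 and 0.96 in MIR210HG-KO, MIR210-KO and WT.

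POLH, the DNA polymerase that copies past UV lesions, was higher in hypoxia MIR210-KO than in WT (0.62 ± 0.0722), but overlaps genes with 215% as many counts. XPC, a damage recognition factor, was called between genotypes only in normoxia MIR210-KO against WT (-0.25 ± 0.0633, and -0.46 with the length balance covariate), among the 6 genotype comparisons, and rose with hypoxia by 0.33 in MIR210HG-KO, 0.35 in MIR210-KO and 0.21 in WT, the last lost at 0.12 both with that covariate and without the second set of 4 libraries. Genes that overlap XPC had 134% as many counts. RRM2B, a ribonucleotide reductase subunit, rose with hypoxia by 0.43, 0.48 and 0.44 in MIR210HG-KO, MIR210-KO and WT. Of the metabolic genes, TIGAR, a regulator of glycolysis, was higher in MIR210-KO than in WT by 0.66 ± 0.158 in normoxia and 0.69 ± 0.149 in hypoxia and was not called in MIR210HG-KO against WT. Its normoxia call was lost with the length balance covariate (0.44, adjusted p = 0.151). FDXR, the ferredoxin reductase of mitochondria, was 0.34 ± 0.0794 higher in normoxia MIR210-KO (0.53 with the covariate) and 0.89 ± 0.0794 higher in hypoxia (interaction 0.54 ± 0.112, adjusted p = 0.000422, and 0.35 without the second set of 4 libraries), and was higher than WT in hypoxia MIR210HG-KO as well (0.37 ± 0.0802).

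**Figure D4:**
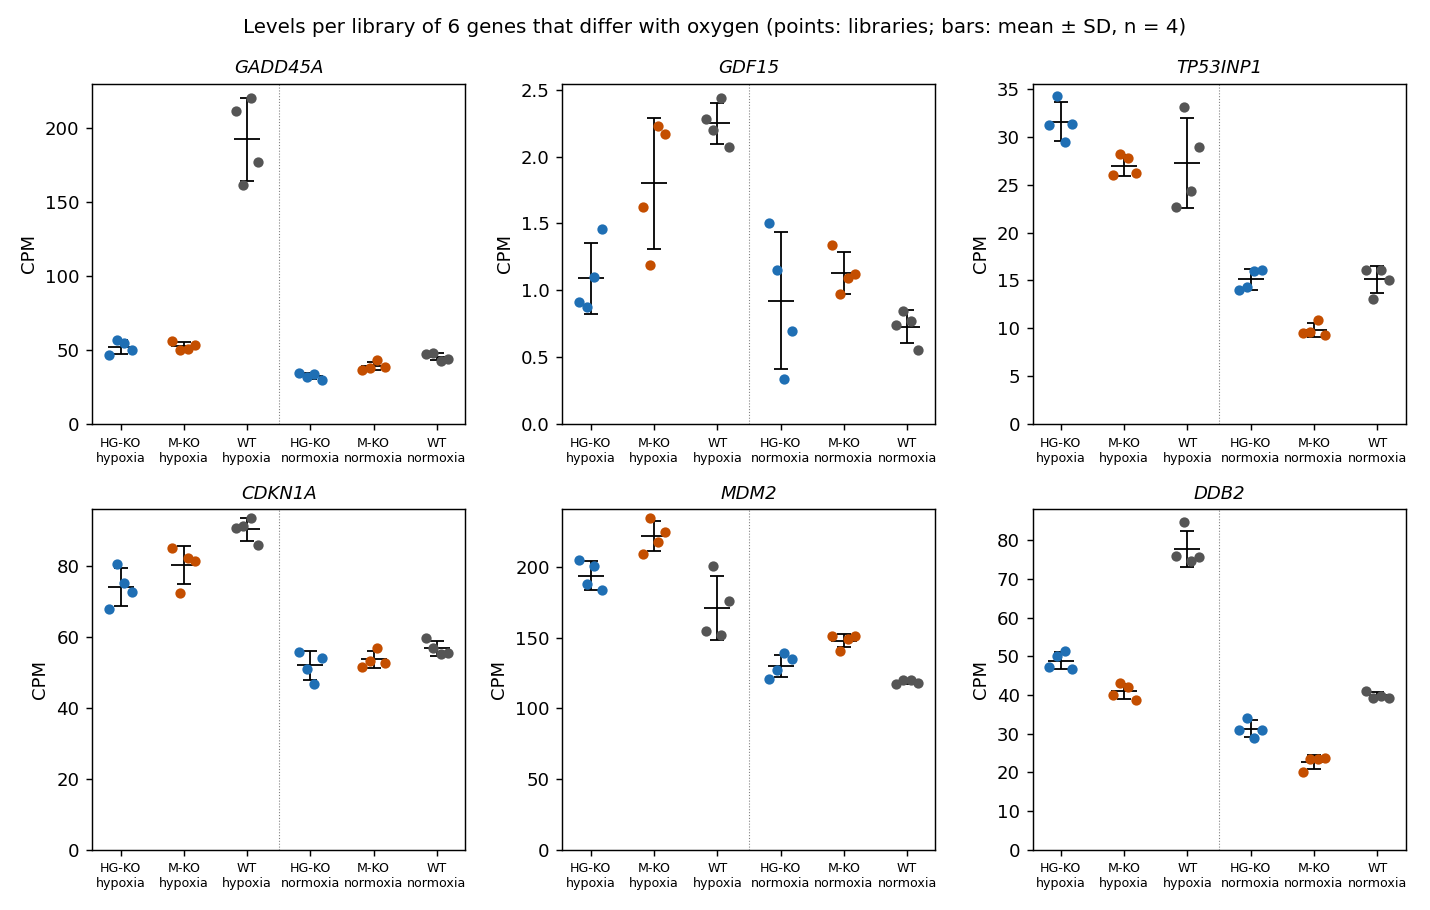
CPM per library of GADD45A, GDF15, TP53INP1, CDKN1A, MDM2 and DDB2 in the 6 groups, where HG-KO is MIR210HG-KO and M-KO is MIR210-KO, with bars for the mean and SD of 4 libraries. GADD45A is high in the hypoxia WT libraries alone among the 6 groups, whereas TP53INP1, CDKN1A, MDM2 and DDB2 are higher in hypoxia than in normoxia in each genotype.

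Some members sit among chromosome neighbours whose median was shifted in MIR210-KO. Whether a stretch shifted as a whole was not tested. For each member, the median log2 change of the other tested genes within 5 Mb was taken. In normoxia MIR210-KO against WT this median was -0.53 around TP53I11 and -0.51 around DDB2, both on chromosome 11, and -0.48 around CDKN1A on chromosome 6. It was 0.41 around FAS on chromosome 10, and 0.37 around FDXR and 0.30 around PPM1D on chromosome 17. The hypoxia medians were -0.56, -0.55, -0.46, 0.45, 0.42 and 0.33 in the same order. In normoxia FDXR (0.34) and PPM1D (0.36) lay -0.03 and 0.05 from the medians of their neighbours, and in hypoxia FDXR (0.89) lay 0.47 above and PPM1D (0.20) -0.13 from them. TP53I11 (-0.31) lay 0.22 above its neighbours in normoxia, DDB2 (-0.81) differed by -0.30 and FAS (0.92) by 0.52. CDKN1A (-0.08) was not called where its neighbours were lower. Around EDA2R, ZMAT3, TIGAR and BAX the median was between -0.05 and 0.02.

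In MIR210HG-KO against WT the neighbours moved little in normoxia, apart from those of PERP, with a median of -0.31, and of XPC at 0.16, the others lying between -0.10 and 0.05. The median around EDA2R was 0.02, against -2.22 for EDA2R itself. How far the genotype changes of FAS, DDB2, FDXR, PPM1D and TP53I11 belong to their chromosome stretch was not tested.

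**Figure D5:**
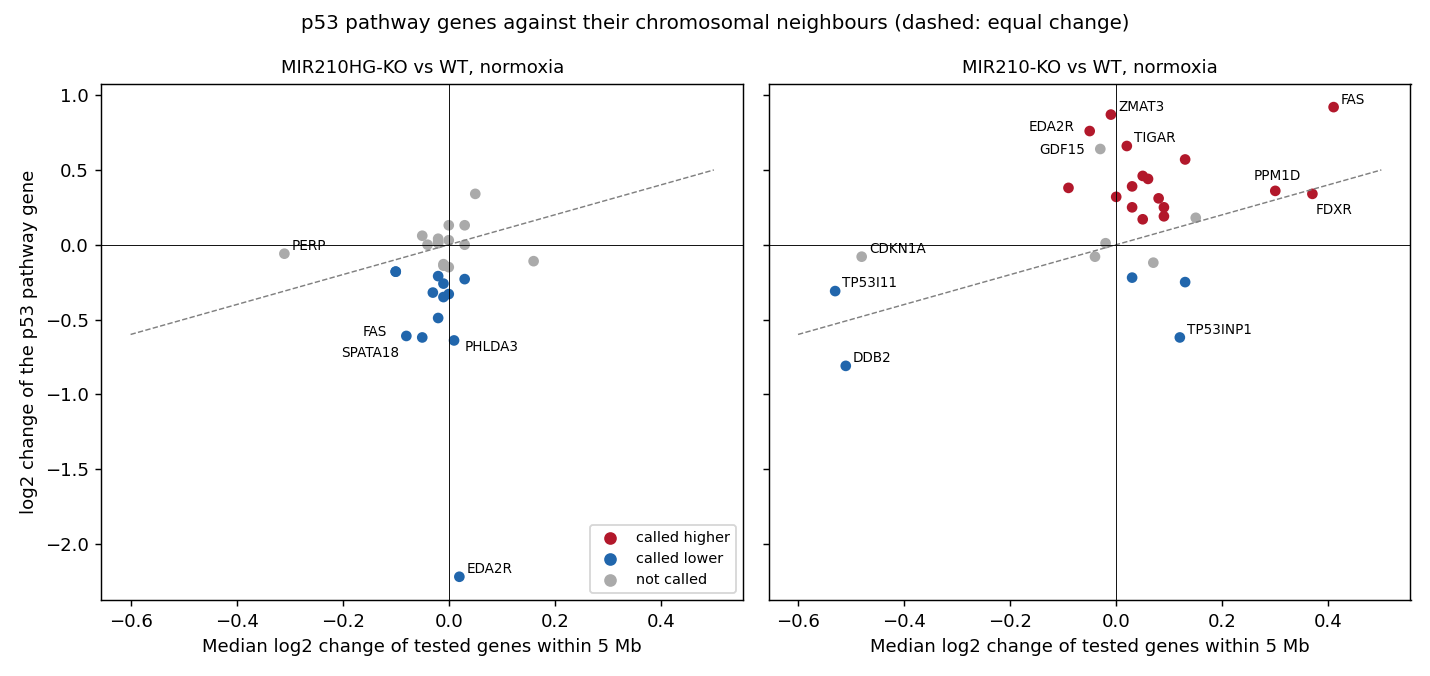
Log2 change of each tested p53 pathway gene (vertical axis) against the median log2 change of other tested genes within 5 Mb (horizontal axis) in normoxia, for MIR210HG-KO against WT on the left and MIR210-KO against WT on the right. The dashed line marks equal change, red points were called higher, blue lower and grey not called: in MIR210-KO the neighbours of TP53I11, DDB2 and CDKN1A lie near -0.5 and those of FAS near 0.41, while EDA2R and ZMAT3 have neighbours near 0.

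A list of p53 regulators, 26 of them tested, had calls in both directions in each knockout. In normoxia 9 were higher and 4 lower in MIR210HG-KO than in WT (median 0.09), and 6 higher and 7 lower in MIR210-KO (median -0.01). The background in MIR210HG-KO was 35.2% of all genes called, 15.6% higher and 19.6% lower. In MIR210-KO it was 44.2%, 22.6% higher and 21.6% lower. In hypoxia 8 were higher and 7 lower in MIR210HG-KO, and 5 higher and 13 lower in MIR210-KO (median -0.11). The hypoxia background in MIR210HG-KO was 54.6% called, 24.4% higher and 30.2% lower. In MIR210-KO it was 55.9%, 28.2% higher and 27.7% lower. Most calls in hypoxia MIR210-KO were thus lower. In normoxia MIR210HG-KO the highest was PPP1R13B, which encodes the p53 cofactor ASPP1, at 0.77, followed by TP73, a p53 family member, at 0.47 (0.33 in MIR210-KO), while the acetyltransferase genes CREBBP (0.38) and EP300 (0.31) were also higher.

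CDKN2A, whose product p14ARF blocks MDM2 and whose other product p16 inhibits cyclin-dependent kinases, was lower in MIR210HG-KO and higher in MIR210-KO than in WT. It averaged 153 ± 11.8, 386 ± 35.7 and 228 ± 5.58 CPM in normoxia MIR210HG-KO, MIR210-KO and WT, with changes against WT of -0.58 ± 0.0843 (adjusted p = 1.7e-06) and 0.76 ± 0.0838 (adjusted p = 5.16e-09). Counts per gene do not separate these 2 products.

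The kinases CHEK1 (-0.68) and ATM (-0.69) and the acetyltransferase KAT5 (-0.79) were lower in normoxia MIR210-KO and not called in normoxia MIR210HG-KO, and TRIM24, a ubiquitin ligase of p53, was lower in both (-0.78 in MIR210HG-KO, -0.66 in MIR210-KO). Chromosome neighbours were examined for the members only. Whether stretches around these regulators shifted as a whole was not tested.

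A list of 31 further p53 targets, 29 of them tested, had calls in both directions in each knockout. In normoxia 4 were higher and 12 lower in MIR210HG-KO (median -0.19), and 12 higher and 6 lower in MIR210-KO (median 0.11). The background was 15.6% of all genes higher and 19.6% lower in MIR210HG-KO, and 22.6% and 21.6% in MIR210-KO. The 4 higher in MIR210HG-KO were SUSD6 (0.50), TNFRSF10D (0.36), a decoy receptor for TRAIL, BLOC1S2 (0.30) and APAF1 (0.21), which encodes the core of the apoptosome. LIF, a cytokine gene, was at -1.25 in MIR210HG-KO and 2.04 in MIR210-KO, the kinase gene PLK2 at -0.60 and 1.04, the autophagy gene DRAM1 at -0.91 and 0.43, and the ribosomal protein gene RPS27L at -0.25 and 0.49, all called. The apoptosis inducer BBC3, which encodes PUMA, was lower than WT in both knockouts, at -1.09 in MIR210HG-KO and -0.32 in MIR210-KO. SESN2, which is also on the stress response list, was at -1.62 in MIR210HG-KO and -1.0 in MIR210-KO. In hypoxia 6 of the 29 were higher and 14 lower in MIR210HG-KO (median -0.27), and 12 higher and 9 lower in MIR210-KO (median 0.04). The hypoxia background was 24.4% of all genes higher and 30.2% lower in MIR210HG-KO, and 28.2% and 27.7% in MIR210-KO.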

How the data were processed

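Messenger RNA of 24 libraries, 4 in each of 6 groups, was analysed from the raw count per gene that the authors deposited, in 1 table for hypoxia and 1 for normoxia, so oxygen level and table cannot be told apart. Per the submitters' processing notes, the build was GRCh38 and the tools named, with no role given, are edgeR 3.24.3, DESeq2 1.20.0, STAR 2.6.1d and featureCounts 1.5.0-p3. Which strand setting and annotation were used is not given in the sources used here.

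Counts were tested in R 4.3.3 with edgeR 4.0.16. Genes with low counts were removed by filterByExpr over the 6 groups, which left 19952, libraries were scaled by TMM factors, and 1 fit with a mean per group covered all 24 libraries. The quasi-likelihood F test was two-sided, with Benjamini-Hochberg adjustment over all genes tested and calls at 0.05. There were 12 comparisons, 9 between pairs of groups and 3 interactions, which are differences between 2 oxygen responses. CPM are counts relative to the scaled library size, a value after a log2 change is its standard error, and a value after a mean CPM is the SD of 4 libraries. Depth was 25556776 to 37858947 counts, and GDF15, the tested member with the fewest counts, had 78 in the 4 normoxia WT libraries together. The steps were run on simulated data in which few genes changed, evenly up and down, so scaling under widespread change was not tested. Of genes changed 1.25-fold, 44% were found for MIR210-KO against WT in normoxia. For the interaction of MIR210-KO minus WT 14% were found. At 4-fold 100% were found in both.

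The members, roles and other lists were chosen with earlier results of these data known. Per-library values are printed for members called with an absolute log2 change of at least 1 in any of the 9 comparisons, and for CDKN1A, MDM2, BAX and TP53INP1 as fixed examples. DDB2 was added to these after its values were seen, and genes of the other lists named with values were also chosen after their values were seen. Of the list of regulators, 1 gene is not reported here and is left out of the counts. Alternatives were RLE and upper quartile factors, 2 other filters, fits of only the libraries compared, a replicate block, a covariate for the balance of long against short genes, DESeq2 1.42.0, leaving out each library, and leaving out each of 2 sets of 4 libraries, the second of them chosen after seeing the data. Promoters came from a RefSeq table of GRCh38.p14, while gene positions are those in the deposited tables.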

Additional observations from a re-analysis of the deposited data

Results flagged for a closer look

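In 168 sets of 4 libraries, 1 for each tested member and group, 8 had a highest or lowest library farther from its nearest neighbour than Dixon's 95% limit allows. Chance gives about 1 in 20 such sets. DDB2 had 84.8 CPM in hypoxia WT 2, with the other libraries of the group at 74.7 to 76.0, and 20.2 CPM in normoxia MIR210-KO 1, with the others at 23.4 to 23.7. MDM4 had 147 CPM in hypoxia MIR210-KO 2, against 134 to 136 in the others. RRM2B had 63.7 CPM in hypoxia MIR210-KO 1, against 73.6 to 75.6, and 56.2 CPM in normoxia MIR210HG-KO 3, against 42.2 to 44.5. These last 2 libraries stand apart from their groups over all genes. TP53I11 had 53.8 CPM in hypoxia MIR210HG-KO 2, against 59.6 to 60.4. XPC had 55.5 CPM in normoxia MIR210HG-KO 2, against 57.1 to 57.3, and 46.5 CPM in normoxia MIR210-KO 4, against 52.4 to 53.5.

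The oxygen response differed between genotypes in 23 called interactions, each tested in the fit of all 24 libraries. For MIR210-KO minus WT the log2 differences were 0.31 for FAS, 0.41 for BAX, 0.52 for BTG2, 0.60 for TP53I3, 0.61 for TP53INP1, 0.54 for FDXR, 0.37 for POLH, -0.48 for AEN, -0.26 for PERP and -1.65 for GADD45A. For MIR210HG-KO minus WT they were -0.25 for MDM4, 0.46 for FAS, 0.26 for BTG2, -1.39 for GDF15, 0.38 for FDXR, -0.32 for DDB2, 0.31 for POLH, -0.31 for AEN, 0.46 for PHLDA3, -1.39 for GADD45A and 0.53 for SPATA18. For MIR210HG-KO minus MIR210-KO they were -0.27 for BTG2 and 0.57 for SPATA18. Of 26 alternatives each, the call was lost under 19 for FAS, 5 for TP53I3, 5 for PERP and 2 for BAX in MIR210-KO minus WT. It was lost under 8 for MDM4, 8 for POLH and 1 each for BTG2, GDF15 and FDXR in MIR210HG-KO minus WT, and under 16 for BTG2 in MIR210HG-KO minus MIR210-KO.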

How the results depend on the processing

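Of 202 pairs of member and comparison that were called, 153 kept the call and direction under every alternative run and 49 lost the call under at least 1. The covariate for gene length balance reversed 2 values in normoxia MIR210-KO against WT, GADD45A to 0.04 and POLH to -0.08, neither called. The cause was not tested. The balance, the mean log2 CPM of long genes minus that of short genes, did not overlap between those groups. It was 4.92 to 4.964 in normoxia MIR210-KO and 4.819 to 4.853 in normoxia WT. The covariate thus cannot be told fully apart from genotype in that comparison. It lost 15 further calls, the fit with no filter on low counts 16, upper quartile factors 11, the fits of only the libraries compared 9, leaving out the first set of 4 libraries 8 and the second set 10, RLE factors 6, DESeq2 5 and the 1-CPM filter 1. The number of members called for the interaction of MIR210HG-KO minus MIR210-KO was 8 without the first set of 4 libraries and 6 without the second, against 2 with all libraries.

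Leaving out 1 library at a time, the number of members called ran from 10 to 12 for MIR210HG-KO against WT in normoxia and from 13 to 16 in hypoxia, from 20 to 22 for MIR210-KO against WT in normoxia and from 22 to 24 in hypoxia, and from 19 to 21 for MIR210HG-KO against MIR210-KO in normoxia and from 18 to 21 in hypoxia. For hypoxia against normoxia it ran from 18 to 22 in MIR210HG-KO, 18 to 20 in MIR210-KO and 22 to 24 in WT, and for the interactions from 9 to 11 (MIR210HG-KO minus WT), 8 to 11 (MIR210-KO minus WT) and 1 to 2 (MIR210HG-KO minus MIR210-KO). BTG2 lost its interaction between the knockouts without any 1 of 12 libraries, and FAS its interaction of MIR210-KO minus WT without any 1 of 13.

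Nothing in the labels links libraries with the same number in different groups. Their deviations correlated at -0.115 to 0.12, and 6 of 24 libraries correlated best with their own number. These values do not show whether such libraries shared a preparation. With a replicate block no call was lost, and 17 members in place of 16 were called for MIR210HG-KO against WT in hypoxia. Over all genes, the interaction of MIR210HG-KO minus MIR210-KO had 707 calls, 1096 by DESeq2, 2144 without the first set of 4 libraries, 2056 without the second, 467 without hypoxia MIR210HG-KO 4, 457 without normoxia MIR210-KO 2 and 1106 without normoxia MIR210HG-KO 3. Without the second set, the interactions with WT had 7955 calls in place of 5287 for MIR210-KO and 7038 in place of 4486 for MIR210HG-KO. Upper quartile factors moved the median of all genes for hypoxia against normoxia by 0.14 in MIR210HG-KO and in MIR210-KO. The share of calls that were higher became 62.9% in place of 47.6% in MIR210HG-KO, 64.1% in place of 49.8% in MIR210-KO, and 55.8% in place of 45.6% for the interaction of MIR210HG-KO minus WT. Among members the share in WT became 77.3% in place of 65.2%, and among all genes 57.6% in place of 49.1%. The member median relative to all genes stayed at 0.19, 0.16 and 0.21 in MIR210HG-KO, MIR210-KO and WT.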
